A study of Mus musculus with 16 samples.

Results

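The Cxcr3 ligands Cxcl9, Cxcl10 and Cxcl11 are the chemokines that bind the receptor Cxcr3. They were taken here by gene symbol, as every probe set that the array's probe table assigns to 1 of these genes and no other. This gave 5 probe sets for 3 genes, 2 for Cxcl9, 1 for Cxcl10 and 2 for Cxcl11, out of 45101 probe sets on the array and 18193 genes that could be compared. The values come from dendritic cells that were grown from bone marrow of wild-type C57BL/6 mice in GM-CSF at 15 ng/ml and collected as non-adherent immature cells on day 8. The cells were then plated in GM-CSF at 10 ng/ml, in the NCFM groups together with Lactobacillus acidophilus NCFM, a gut bacterium used as a probiotic, at 10 µg/ml. RNA was taken at 4, 10 and 18 h, and each sample was read on 1 single-channel array. There were 9 NCFM arrays, 3 for each time, and 7 arrays of control cells without the bacterium, 3 for 4 h and 2 each for 10 and 18 h. All groups share the GM-CSF culture, and whether the arrays of a group stand for separate mice is not in the labels. Array 1 of each group differed from the others in sex-linked transcripts, as given below, so the spread within a group is not technical alone, while for arrays 2 and 3 this is not known. Of the 8 measured markers of the labelled cell type, 4 were bright on all arrays. The class II genes Cd74, H2-Ab1 and H2-Aa had 19181 to 24112, 11292 to 15511 and 15309 to 18074 intensity units in NCFM arrays, and 21231 to 24211, 12249 to 14958 and 15621 to 17833 in control arrays. Itgax, the gene of the dendritic cell integrin CD11c, had 1654 to 5478 in NCFM arrays and 2830 to 5073 in control arrays. The others were dimmer on some or all arrays: Flt3, a growth factor receptor of this lineage, had 323 to 421 in NCFM arrays and 307 to 427 in control arrays, and Zbtb46, a transcription factor of the same lineage, 309 to 955 and 306 to 461. Csf1r, a receptor of macrophages and monocytes, was bright as well, with 5831 to 17135 in NCFM arrays and 10370 to 19675 in control arrays. Some neutrophil markers were also bright. S100a8 had 1595 to 12288 in NCFM arrays and 7282 to 17997 in control arrays, and S100a9 had 1020 to 13192 and 7822 to 16462. Elane, of the same marker list, was dimmer, with 224 to 551 and 275 to 439. The median probe set of an array lay between 162 and 167.

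Cxcl9, Cxcl10 and Cxcl11 are small secreted proteins that draw activated T cells and natural killer cells, which carry Cxcr3 on their surface. All 3 genes are classical targets of interferons, which act through STAT proteins and interferon regulatory factors. Cxcl9 is known above all as a target of interferon gamma, while Cxcl10 also answers directly to type I interferon and to NF-kB, the factor that Toll-like receptors and TNF activate. Dendritic cells use these chemokines to bring T cells to themselves in lymph nodes and inflamed tissue. In the mouse reference annotation (RefSeq, GRCm38.p6), which is built on the C57BL/6J strain, Cxcl11 is listed as a transcribed pseudogene. The C57BL/6 allele is known to carry a frameshift, so the Cxcl11 values below measure a transcript and not a chemokine.

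The 3 genes lie next to each other on mouse chromosome 5, with Art3 between Cxcl9 and Cxcl10. The promoters of Cxcl9 and Cxcl10 are printed because both transcripts moved with the bacterium and because the genes are known to be read by different interferon factors. Each run is 250 bases long, ends at the base before the annotated start and is given 5′ to 3′ along the gene, from RefSeq, GRCm38.p6, minus strand, with Cxcl9 at chr5:92328080-92328329 and Cxcl10 at chr5:92348890-92349139. Capitals mark matches to the motifs described after the sequences. The promoter of Cxcl11 was not used here.
Cxcl9: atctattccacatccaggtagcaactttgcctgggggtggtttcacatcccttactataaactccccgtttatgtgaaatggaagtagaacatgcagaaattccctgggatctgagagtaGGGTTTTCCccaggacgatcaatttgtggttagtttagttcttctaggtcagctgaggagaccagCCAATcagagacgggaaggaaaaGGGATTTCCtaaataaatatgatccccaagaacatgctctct
Cxcl10: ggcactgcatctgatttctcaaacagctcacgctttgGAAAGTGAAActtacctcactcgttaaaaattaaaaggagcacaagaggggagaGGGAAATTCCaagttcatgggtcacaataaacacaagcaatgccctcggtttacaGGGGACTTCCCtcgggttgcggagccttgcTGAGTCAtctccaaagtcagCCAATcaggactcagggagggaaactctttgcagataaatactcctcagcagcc

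The motifs were searched on both strands from 250 bases before to 50 bases after the start, and were chosen with the sequences in view. In the Cxcl10 window, the interferon-stimulated response element, known by that name, lies 213 to 204 bases before the start, and none was found in the Cxcl9 window. This motif occurs in 3.44% of 32851 promoters of the same length. The kB consensus, the NF-kB motif known by that name and found in 8.46% of promoters, was matched in Cxcl10 at 159 to 150 bases before the start and by a pair of overlapping matches between 104 and 94. The shorter kB motif GGGNNTTCC, in 5.82% of promoters, was matched in Cxcl9 at 130 to 122 and at 42 to 34 bases before the start, and in Cxcl10 inside the overlapping kB matches. The AP-1 motif TGANTCA, in 7.81% of promoters, was matched at 74 to 68 bases before the start of Cxcl10, and in Cxcl9 at 32 to 38 bases after the start, beyond the printed run. CCAAT, in 37.4% of promoters, was found in both. The longest stretch common to both promoters, cagccaatcag, has 11 bases around this box and begins 68 bases before the start of Cxcl9 and 57 before that of Cxcl10. The gamma-activated site spelled TTCNNNGAA, in 8.3% of promoters, was matched in neither window. A match is a description of the letters and was not tied to any factor.

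**Figure D1:**
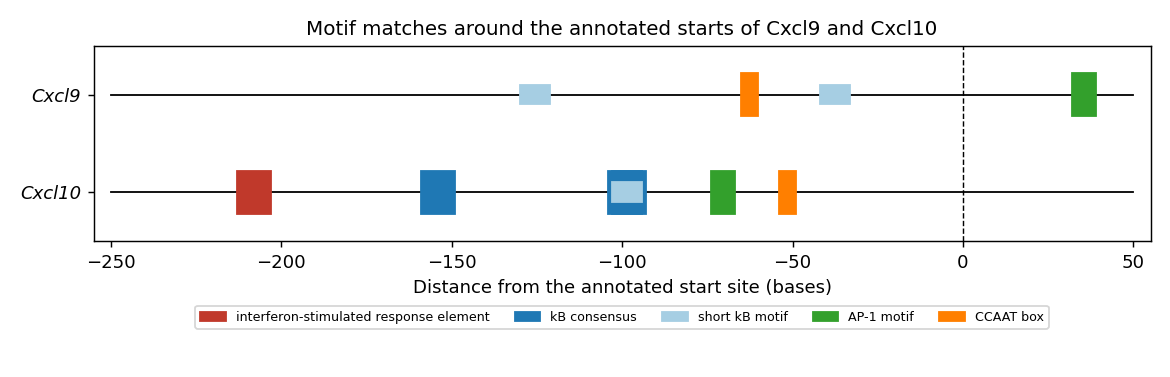
Motif matches in the promoters of Cxcl9 (top) and Cxcl10 (bottom), by distance from the annotated start in bases, with the start at 0. Coloured blocks are matches, the pale blue blocks of lower height are the short kB motif, and the interferon-stimulated response element is present in Cxcl10 at 213 to 204 bases before the start.

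NCFM cells held many times more transcript of all 3 ligands than control cells at every time. Cxcl10 was among the brightest probe sets of the stimulated cells, and the highest mean of Cxcl9 was at 4 h and that of Cxcl11 at 10 h. Intensities are given as deposited, array by array in the order of the array numbers, and levels are compared only within a gene, since probe sets differ in brightness for the same amount of RNA.

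Cxcl9 (probe set 1418652_at) had 3723, 5679 and 7703 intensity units in NCFM cells at 4 h, against 97, 133 and 123 in control cells. At 10 h it had 3321, 5216 and 6892 in NCFM cells, against 128 and 209 in control cells. At 18 h it had 1613, 3525 and 4417 in NCFM cells, against 99 and 156 in control cells. The lowest NCFM array, at 18 h, was still above the highest control array at any time, and array 1 was the lowest of its group in all 6 groups. The group means were 5702 ± 1990, 5143 ± 1787 and 3185 ± 1433 in NCFM cells at 4, 10 and 18 h (SD, n = 3 each), against 118 ± 18.6 (n = 3), 168.5 ± 57.3 (n = 2) and 127.5 ± 40.3 (n = 2) in control cells. Among the probe sets of an array it stood at percentile 93.89 to 99.02 in NCFM arrays and at percentile 20.22 to 59.55 in control arrays.

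Cxcl10 (probe set 1418930_at) had 18368, 19285 and 19462 intensity units in NCFM cells at 4 h, against 281, 769 and 529 in control cells. At 10 h it had 15349, 18390 and 20370 in NCFM cells, against 264 and 742 in control cells. At 18 h it had 11302, 11802 and 13092 in NCFM cells, against 221 and 645 in control cells. NCFM and control arrays did not overlap at any time, and in control cells array 1 was below the other arrays at each time. The means were 19038 ± 587, 18036 ± 2529 and 12065 ± 924 in NCFM cells (SD, n = 3 each), against 526 ± 244 (n = 3), 503 ± 338 (n = 2) and 433 ± 299.8 (n = 2) in control cells. In NCFM arrays only 31 to 227 of the 45101 probe sets were brighter than Cxcl10, and the brightest probe set of those arrays had 29323 to 31573. Compression of such bright signals was not tested.

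Cxcl11 (probe set 1419697_at) had 2343, 3574 and 3129 intensity units in NCFM cells at 4 h, against 150, 149 and 153 in control cells. At 10 h it had 3633, 4855 and 5939 in NCFM cells, against 145 and 163 in control cells. At 18 h it had 3663, 3324 and 3928 in NCFM cells, against 136 and 135 in control cells. The NCFM arrays at 10 h were all above those at 4 h, and all control arrays lay between 135 and 163. The means were 3015 ± 623, 4809 ± 1154 and 3638 ± 303 in NCFM cells (SD, n = 3 each), against 150.7 ± 2.08 (n = 3), 154 ± 12.7 (n = 2) and 135.5 ± 0.707 (n = 2) in control cells.

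**Figure D2:**
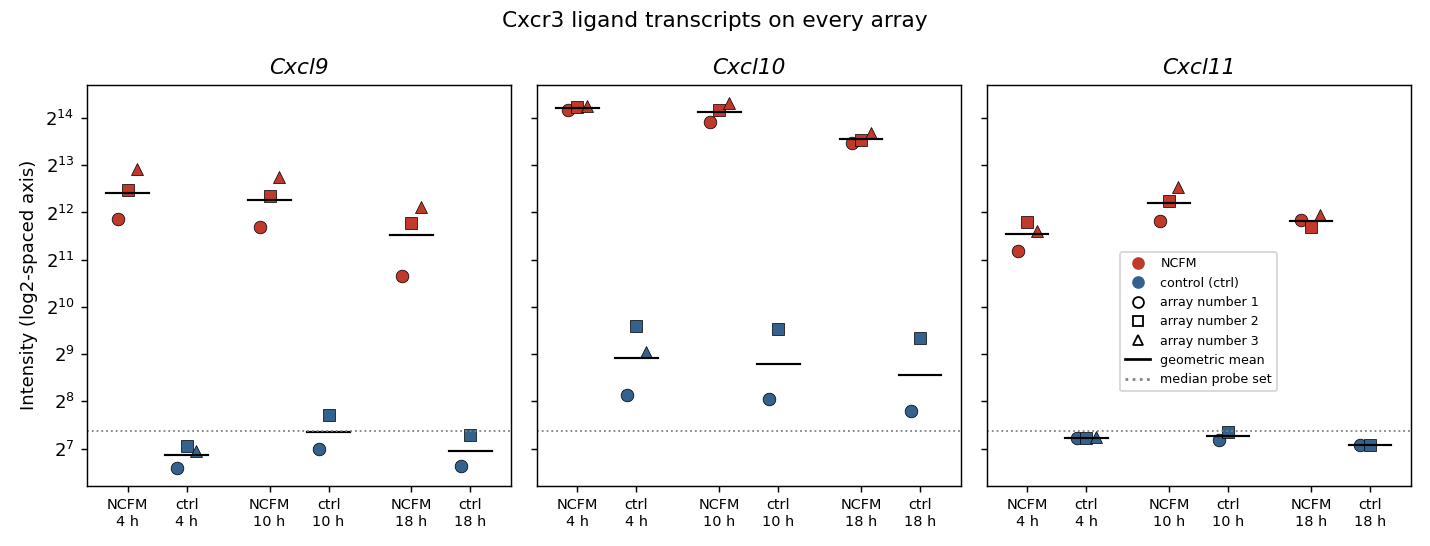
Intensity of Cxcl9, Cxcl10 and Cxcl11 on each of the 16 arrays (log2-spaced vertical axis, intensity units), NCFM groups in red left of control groups in blue, with marker shapes for array numbers 1 to 3, black bars for geometric means and a dotted line for the median probe set. Every NCFM point lies above every control point of its gene, and array 1 is the lowest point of its group for Cxcl9 and Cxcl10 throughout.

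The comparison of NCFM with control cells asks how strongly the bacterium raised each transcript at each time. It was made with limma on log2 intensity across all 18193 genes, with Benjamini-Hochberg adjustment over all of them, and the threshold for a call was an adjusted p of 0.05. All 3 ligands rose at 4, 10 and 18 h, where 5.27%, 8.21% and 7.4% of all genes rose. All 3 also passed a 16-fold rise at each time, which 0.115%, 0.132% and 0.0934% of genes did, or 21, 24 and 17 genes. Every NCFM array was above every control array for all 3 ligands, which held for 13.8%, 23.2% and 21.1% of genes at the 3 times. Counting both directions, 18.3%, 24.7% and 23.7% of genes were called, and the groups did not overlap for 36.5%, 52.1% and 47.2%. Of the genes called, 28.8%, 33.3% and 31.2% were higher, and this share was 41.9%, 50% and 48.7% after quantile normalization and 81.8%, 9.47% and 27.1% after centring on the spike-in controls. The ligands were chosen with these rises known, so the counts describe them and are no separate evidence.

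The control values of Cxcl9 and Cxcl11 lie near or below the median probe set, so the folds of these genes are differences from a dim signal that may hold background, and their order between genes is not read. At 4 h the log2 difference between NCFM and control cells was 5.55 for Cxcl9 (SE 0.40, 46.8-fold, limma adjusted p = 4.51e-06), 5.29 for Cxcl10 (SE 0.44, 39.2-fold, limma adjusted p = 1.13e-05) and 4.30 for Cxcl11 (SE 0.17, 19.7-fold, limma adjusted p = 6.79e-08). At 10 h it was 4.91 for Cxcl9 (SE 0.45, 30.1-fold, limma adjusted p = 1.81e-05), 5.34 for Cxcl10 (SE 0.49, 40.5-fold, limma adjusted p = 1.97e-05) and 4.94 for Cxcl11 (SE 0.19, 30.7-fold, limma adjusted p = 9.81e-08). At 18 h the rise was 23.6-fold for Cxcl9, 31.9-fold for Cxcl10 and 26.8-fold for Cxcl11 (limma adjusted p = 3.27e-05, 3.38e-05 and 1.58e-07 in this order). The 10 and 18 h controls hold 2 arrays each and the NCFM groups 3, so array numbers were not balanced there. With the array number as a block, the rise at 10 and 18 h was 26.1-fold and 20.4-fold for Cxcl9. It was 38.9-fold and 30.6-fold for Cxcl10, and 29.2-fold and 25.6-fold for Cxcl11.

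The size of the fold depends on how the low control values are treated, and the direction does not. With percentile 5 of each array subtracted, the rise of Cxcl9 at 4, 10 and 18 h was 109-fold, 51.5-fold and 52.1-fold, and that of Cxcl11 was 34.0-fold, 53.1-fold and 50.9-fold. For Cxcl10, leaving out control array 1 gave 4.59 at 10 h and 4.22 at 18 h on the log2 scale, and leaving out control array 2 gave 6.08 and 5.77. The arrays hold RNA of the whole culture, so more cells that make a transcript and more transcript per cell cannot be told apart.

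The second probe sets of Cxcl9 and Cxcl11 were much dimmer in NCFM arrays and gave smaller folds. In control arrays that of Cxcl9 overlapped the kept one, with 129 to 175 against 97 to 209. It was the brighter of both on each control array at 4 h. The kept probe set was the brightest over all 16 arrays, so the NCFM arrays entered that choice. For Cxcl9, probe set 1456907_at had 523, 557 and 620 intensity units at 4 h, 348, 379 and 490 at 10 h and 204, 286 and 301 at 18 h in NCFM cells, against 129 to 175 in all control arrays. Its rise was 3.65-fold, 2.61-fold and 1.73-fold at the 3 times (limma adjusted p = 2.48e-05, 3.26e-04 and 0.0107 over 34945 probe sets). For Cxcl11, probe set 1419698_at had 156 to 204 at 4 h, 198 to 293 at 10 h and 127 to 175 at 18 h in NCFM cells, against 94 to 112 in control arrays. Its rise was 1.71-fold at 4 h and 2.32-fold at 10 h (limma adjusted p = 0.00611 and 5.12e-04), and at 18 h the difference of 0.43 on the log2 scale was not called (limma adjusted p = 0.115). In NCFM cells from 10 to 18 h the dim Cxcl11 probe set fell by -0.70 on the log2 scale (SE 0.16, limma adjusted p = 0.042). Both dim probe sets had their highest NCFM mean at the same time as the bright one of their gene. Averaging the probe sets of a gene gave 13.1-fold, 8.86-fold and 6.38-fold for Cxcl9 and 5.80-fold, 8.43-fold and 6.00-fold for Cxcl11.

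The stimulated cells were also compared between times. From 4 to 10 h, Cxcl11 rose by 0.67 on the log2 scale (SE 0.17, 1.59-fold, limma adjusted p = 0.0368), where 6.28% of genes changed and 2.4% rose. Its 10 h arrays did not overlap those at 4 h, which held for 22.1% of genes. Cxcl9 and Cxcl10 differed by -0.15 (SE 0.40) and -0.09 (SE 0.44) and were not called (limma adjusted p = 0.913 and 0.96). The call for Cxcl11 was lost without NCFM 4 h array 1 (0.50 on the log2 scale, limma adjusted p = 0.114) or array 3 (0.70, 0.0759), and without NCFM 10 h array 2 (0.65, 0.124) or array 3 (0.50, 0.147). It was also lost without 4 h control array 1, 2 or 3, which leave the value as it is (limma adjusted p = 0.0511, 0.0555 and 0.0545).

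From 10 to 18 h the differences in NCFM cells were -0.75 for Cxcl9, -0.57 for Cxcl10 and -0.38 for Cxcl11 on the log2 scale, and none was called (limma adjusted p = 0.43, 0.631 and 0.322), where 2.79% of genes were and 1.18% were lower. With the array number as a block, the difference of Cxcl9 was called (SE 0.16, limma adjusted p = 0.0158), where 7.23% of genes were, and it was the same way in the 3 array numbers. The NCFM arrays of Cxcl10 at 18 h did not overlap those at 10 h, which held for 20.9% of genes. The SE of Cxcl10 in this fit, 0.44, carries the spread of its control arrays, whose SD was 0.73 to 1.09 on the log2 scale, against 0.05 to 0.21 in NCFM groups. In a fit of the NCFM 10 and 18 h arrays alone its limma adjusted p was 0.0824. In control cells the 3 ligands had limma adjusted p = 1 between 4 and 10 h and between 10 and 18 h. Of all genes 0% were called by limma there, with 553 and 653 genes at an unadjusted p under 0.05. Their largest control difference was 0.49 for Cxcl9 from 4 to 10 h (SE 0.45). With the array number as a block it was 0.69 (SE 0.18), also not called (limma adjusted p = 0.934).

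Whether the effect of NCFM itself differed between times was tested as the difference of the differences. None of the 3 ligands was called in the fit without a block, where 0.506% of genes were called between 4 and 10 h (0.198% higher and 0.308% lower), 0.0055% between 10 and 18 h and 3.4% between 4 and 18 h (1.19% higher and 2.22% lower). For Cxcl9 the effect at 18 h minus that at 4 h was -0.99 (95% interval -2.30 to 0.31, limma adjusted p = 0.5). With the array number as a block it was -1.20 (SE 0.24, limma adjusted p = 0.0103), where 9.15% of genes were called. The dim Cxcl9 probe set gave -1.08 (SE 0.25, limma adjusted p = 0.045 over all probe sets) without the block and -1.14 with it (limma adjusted p = 0.0191). For Cxcl10 the same difference was -0.30 (95% interval -1.74 to 1.14), and for Cxcl11 it was 0.44 (95% interval -0.11 to 0.99). The dim Cxcl11 probe set had the opposite sign, with -0.35 (limma adjusted p = 0.589), and the mean of both gave 0.05. These intervals do not exclude a change of 2-fold or more for Cxcl10 and of nearly that size for Cxcl11. From 4 to 10 h the effect on Cxcl11 differed by 0.64 (95% interval 0.09 to 1.19), which did not pass the adjustment over all genes (limma adjusted p = 0.376). With the block, where 2.51% of genes were called, it was 0.57 (limma adjusted p = 0.216).

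**Figure D3:**
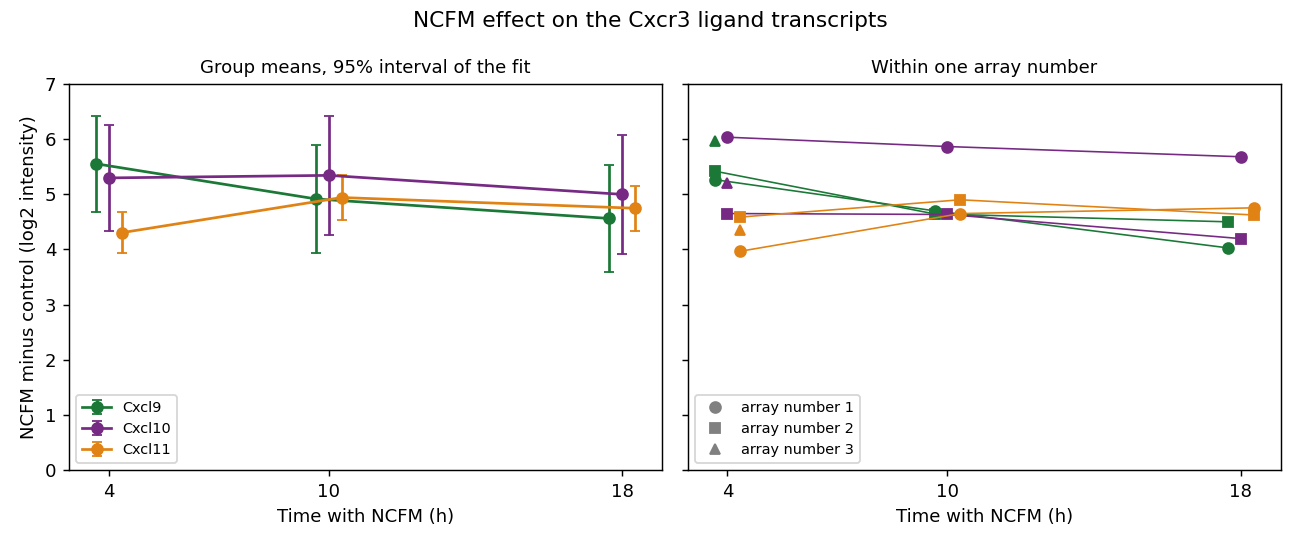
NCFM minus control on the log2 intensity scale against time with NCFM (h) for Cxcl9, Cxcl10 and Cxcl11, set slightly apart sideways, with group means and 95% intervals of the fit (left) and differences within each array number (right). Cxcl9 stands at 5.55 at 4 h and 4.56 at 18 h, Cxcl11 is highest at 10 h, and the Cxcl10 line of array number 1 lies above that of number 2 at each time.

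Array numbers moved with 2 of the ligands. The arrays numbered 1 stood apart in every group, with Xist, an RNA made from the silenced X chromosome of female cells, lower by a mean of 4.32 on the log2 scale, and Eif2s3y, a Y-linked gene, higher by a mean of 3.89. On these arrays Cxcl9 was below the other arrays in 6 of 6 groups, by -1.29 to -0.40 on the log2 scale. Cxcl10 was lower in 6 of 6 groups too, by a mean of -0.18 in NCFM groups and of -1.41 in control groups. Cxcl11 was lower in 4 of 6 groups (-0.56 to 0.02). Over all genes, 9.72% were lower on array 1 in all 6 groups. By Xist and Eif2s3y, the arrays numbered 1 differed from the others in the male direction in all 6 groups. What else sets these arrays apart, and the part of any such difference in the ligands, was not tested, beyond the values within a number.

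Within a number, the effect of NCFM kept its direction for each ligand and time. For Cxcl9 it was 5.26, 5.42 and 5.97 at 4 h in numbers 1, 2 and 3, and 4.70 and 4.64 at 10 h and 4.03 and 4.50 at 18 h in numbers 1 and 2. For Cxcl10 it was 6.03, 4.65 and 5.20 at 4 h, 5.86 and 4.63 at 10 h, and 5.68 and 4.19 at 18 h. As folds these are 65.4 in number 1 and 25.1 in number 2 at 4 h, and 51.1 and 18.3 at 18 h. For Cxcl11 it was 3.97, 4.58 and 4.35 at 4 h, 4.65 and 4.90 at 10 h, and 4.75 and 4.62 at 18 h.

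Differences between ligands taken within each array do not carry what shifts all probe sets of an array together, and only their change with time is compared. The log2 difference Cxcl11 minus Cxcl9 in NCFM arrays averaged -0.88 ± 0.37 at 4 h, -0.06 ± 0.18 at 10 h and 0.31 ± 0.76 at 18 h (SD, n = 3 each). The 4 h arrays, with -0.67, -0.67 and -1.30, lay below all 10 h arrays, with 0.13, -0.10 and -0.22, and below all 18 h arrays, with 1.18, -0.09 and -0.17. Cxcl11 minus Cxcl10 averaged -2.68 ± 0.27 at 4 h, -1.93 ± 0.15 at 10 h and -1.73 ± 0.10 at 18 h, and the 4 h arrays again lay below all later ones. These 4 shifts from 4 h had an exact permutation p of 0.1, two-sided, which is the smallest that 3 against 3 arrays allow (0.225 adjusted over 9 tests). The permutation treated arrays of the same number as unpaired. Cxcl9 minus Cxcl10 averaged -1.80, -1.86 and -2.04, overlapped between all times and had exact permutation p = 0.7 to 0.9.

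**Figure D4:**
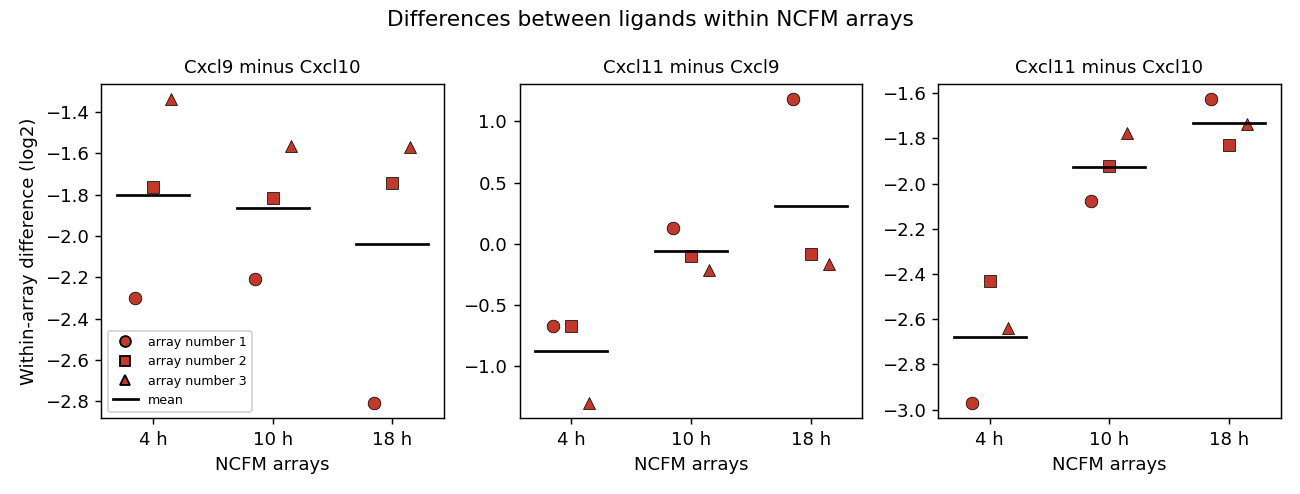
Log2 intensity differences between ligands within each NCFM array at 4, 10 and 18 h (3 arrays each, bars are means, marker shapes are array numbers, and each panel has its own vertical scale). Cxcl11 minus Cxcl9 and Cxcl11 minus Cxcl10 are lowest in the 4 h arrays, and Cxcl9 minus Cxcl10 overlaps between times.

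The genes around the ligands were described by 9 lists with 87 measured genes, whose counts stand against the 5.27%, 8.21% and 7.4% of all genes that rose and the 13.1%, 16.5% and 16.3% that fell at 4, 10 and 18 h. The first list holds the receptor and the genes that handle the ligands. Of its 5 genes, Cxcr3, the atypical receptors Ackr1, Ackr2 and Ackr3, which bind chemokines without signalling as usual receptors do, and Dpp4, the peptidase that trims the ligands, limma called none at any time in the fit without a block, with 0, 1 and 1 at an unadjusted p under 0.05. Cxcr3 had 173 to 195 intensity units in NCFM arrays and 150 to 209 in control arrays, close to the median probe set. With the array number as a block, Ackr3 was called as lower at 10 h (-1.68 without the block, limma adjusted p = 0.0441 with it). In the blocked fit 31.1% of all genes were called at 10 h.

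Among 9 inducing cytokines, 5, 7 and 5 rose at 4, 10 and 18 h and none fell, with list medians of 1.31, 1.25 and 0.77 on the log2 scale, against -0.01, 0.01 and 0.00 over all genes. Ifng, the gene of interferon gamma, had 75 to 86 intensity units in NCFM arrays and 69 to 76 in control arrays, below the first quartile of every array (104 to 108). It was not called at any time (0.12, 0.08 and 0.14 on the log2 scale, limma adjusted p = 0.183, 0.422 and 0.15). Ifnb1, the gene of interferon beta, had 1396 to 1690 in NCFM cells at 4 h, 249 to 567 at 10 h and 241 to 314 at 18 h, against 134 to 147, 137 to 148 and 154 to 160 in control cells. Its rise was 3.43 (SE 0.23), 1.30 (SE 0.25) and 0.77 (SE 0.25) on the log2 scale (limma adjusted p = 2.16e-06, 0.00274 and 0.0452), and the call at 18 h was lost when any of 14 of the 16 arrays was left out (limma adjusted p up to 0.143).

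The effect on Ifnb1 at 18 h minus that at 4 h was -2.67 (SE 0.34, limma adjusted p = 0.00221), a call kept when any array was left out. Tnf, a cytokine that activates NF-kB, rose by 4.62, 2.91 and 1.61 on the log2 scale at 4, 10 and 18 h. Its effect at 18 h minus that at 4 h was -3.01 (SE 0.27, limma adjusted p = 5.15e-04), also kept when any array was left out. Over the same span, Cxcl9 had -0.99 (SE 0.60), and -1.20 with the block (limma adjusted p = 0.0103), Cxcl10 -0.30 (SE 0.66) and Cxcl11 0.44 (SE 0.25). The control arrays enter each of these values, and the differences between the genes themselves were not tested. Il12b and Il12a, the subunits of interleukin 12, which makes T and natural killer cells release interferon gamma, rose by 5.15, 5.04 and 4.26 and by 1.31, 1.25 and 1.15. Il1b rose by 3.88, 3.03 and 3.01, with the calls lost without array 1 of the control at 10 h or at 18 h (limma adjusted p = 0.127 and 0.115).

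**Figure D5:**
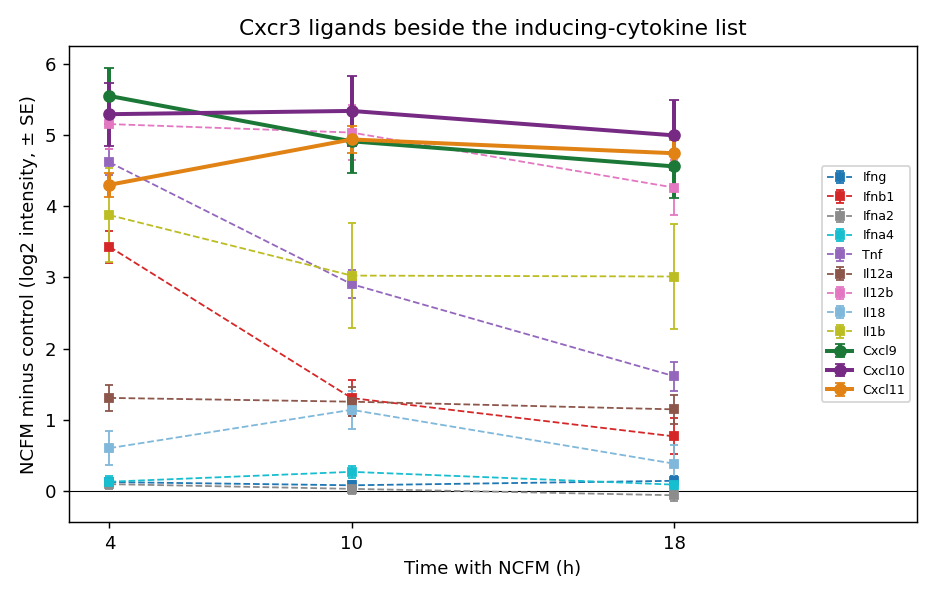
NCFM minus control on the log2 intensity scale (± SE of the fit) against time with NCFM (h) for the 3 ligands (thick lines, circles) and the 9 measured inducing cytokines (dashed lines, squares). Ifnb1 and Tnf are at 3.43 and 4.62 at 4 h and at 0.77 and 1.61 at 18 h, the ligands stay between 4.30 and 5.55, and Ifng lies near 0.

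Of 7 genes for interferon receptors and their kinases, 1 rose and 1 fell at 4 h and at 10 h, and 2 rose and 1 fell at 18 h. Over all genes 18.3%, 24.7% and 23.7% were called in either direction, so these counts are near the background. With the array number as a block, 2, 4 and 4 rose and 1 fell at the 3 times. In that fit 26.8%, 31.1% and 30.5% of all genes were called in either direction. Ifngr1, the ligand-binding chain of the interferon gamma receptor, was the gene that fell, by -1.21, -1.52 and -1.72 on the log2 scale (limma adjusted p = 0.0152, 0.00609 and 0.00306). It had 618 to 1224 intensity units in NCFM arrays and 1496 to 3681 in control arrays, with no overlap. Its call at 4 h was lost without NCFM array 1 or without control array 2 or 3 (limma adjusted p up to 0.0706), and that at 10 h without control array 2 (0.0568). Jak2, a kinase bound to this receptor, rose at 4 and 10 h by 0.69 and 0.77 (limma adjusted p = 0.00767 and 0.00576). At 18 h it had 0.50 and was called only with the block (limma adjusted p = 0.0512 without it and 0.023 with it).

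Of 13 measured transcription factor genes, 8, 7 and 5 rose at 4, 10 and 18 h and 1 fell at each time, with medians of 0.89, 0.77 and 0.35. Stat2, which carries the signal of type I interferon to the nucleus, rose by 2.56, 2.08 and 1.92. Irf7, which amplifies type I interferon, rose by 3.34, 3.90 and 3.82. Irf1, a factor that binds the promoters of interferon gamma targets, rose by 2.14, 1.36 and 1.01, with the call at 18 h lost without NCFM array 2 or without control array 1 (limma adjusted p up to 0.156). Batf2, which works with Irf1, rose by 2.10, 1.82 and 1.40. Rel, an NF-kB subunit, rose at 4 h by 1.61 and was not called later (0.84 and 0.26). Irf3, which starts the transcription of Ifnb1, was the gene that fell, by -0.46, -0.64 and -0.63.

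Of 9 feedback inhibitors, 6 rose and none fell at each time. Socs1 and Socs3, which block the kinases of cytokine receptors, rose by 2.75, 2.18 and 2.18 and by 3.49, 2.95 and 3.40. Usp18, which dampens the type I interferon receptor, rose by 3.59, 3.47 and 3.22, and Tnfaip3, a brake on NF-kB, by 2.02, 1.71 and 1.69.

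All 11 measured targets known for interferon beta rose at each time, with medians of 3.73, 4.68 and 4.38, and all 11 also rose with the array number as a block and with arrays 2 and 3 alone. Examples are the antiviral genes Ifit1 (5.39, 4.73 and 4.71 on the log2 scale), Rsad2 (4.56, 4.68 and 4.47) and Oasl1 (3.73, 4.36 and 4.26). Of 11 targets known for interferon gamma, 8, 9 and 9 rose, and 1 fell at 18 h, with medians of 1.64, 2.14 and 2.04. The immunity-related GTPases Iigp1, Igtp and Irgm1 rose by 4.07, 4.73 and 4.41, by 3.06, 2.72 and 2.35, and by 3.29, 2.77 and 2.23. Many genes of both lists answer to both interferons. Nos2, the inducible nitric oxide synthase, was not called at 4 h (1.33, limma adjusted p = 0.0611) and rose by 3.37 and 3.71 at 10 and 18 h. Ido1, an enzyme that breaks down tryptophan, had 113 to 145 intensity units in NCFM arrays and 109 to 129 in control arrays and was not called. Ciita, the master factor of class II genes, was the gene that fell at 18 h (-0.54, limma adjusted p = 0.0395), a call lost when any of 10 arrays was left out (limma adjusted p up to 0.307).

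Of 12 other CXC chemokines, 4, 4 and 5 rose and none fell, where 5.27%, 8.21% and 7.4% of all genes rose, with medians of 0.08, 0.11 and 0.06 on the log2 scale. Those that rose at 4 h were the neutrophil attractants Cxcl1, Cxcl2, Cxcl3 and Cxcl5, by 0.89, 3.70, 1.24 and 3.64. At 10 and 18 h Cxcl2 also rose by 2.23 and 2.19, Cxcl3 by 0.93 and 1.32, Cxcl5 by 3.62 and 3.88, and Cxcl16 by 1.05 and 0.93. Cxcl1 was not called at 10 h (0.45, limma adjusted p = 0.116). At 18 h it rose by 0.58, close to the threshold (limma adjusted p = 0.0481). Cxcl12, Cxcl13, Cxcl14, Cxcl15 and Cxcl17, which mostly guide cells in resting tissue, and the platelet chemokines Ppbp and Pf4 were not called at any time without a block. With the array number as a block, 1 of the 12 fell at each time, where 26.8%, 31.1% and 30.5% of all genes were called in either direction. It was Pf4 at 4 h and Cxcl14 at 10 and 18 h (limma adjusted p = 0.0205, 0.0457 and 0.0409). Of 10 genes of the Toll-like receptor input, 2, 4 and 3 rose and 1 fell. With the block 7 rose and 1 fell at 4 h, where 26.8% of all genes were called in either direction. The gene that fell without the block was Tlr4, by -0.67, -0.85 and -0.72 (limma adjusted p = 0.0267, 0.0112 and 0.0264). Tlr1 was not called at 4 h (1.05) and rose by 2.22 and 1.97 at 10 and 18 h (limma adjusted p = 0.0196 and 0.0351). Tlr2, the receptor named in the title of the study, had 0.69, 0.42 and -0.52 on the log2 scale. It was not called in the fit without a block (limma adjusted p = 0.168, 0.426 and 0.332). With the block it was called as higher at 4 h (limma adjusted p = 0.031) and at neither later time. Tlr3, a receptor for double-stranded RNA, rose by 1.97, 2.76 and 1.75 at 4, 10 and 18 h, with the call at 18 h lost without control array 1 (limma adjusted p = 0.0947). Myd88, the adaptor of most Toll-like receptors, rose by 1.28 and 0.62 at 4 and 10 h and was not called at 18 h (0.12).

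Of the 6 measured genes around the ligands on chromosome 5 none rose at any time, where 5.27%, 8.21% and 7.4% of all genes did. With 6 genes such a count is near these shares and reads as no result about the neighbours. The falls given next stand against 13.1%, 16.5% and 16.3% of all genes that fell at 4, 10 and 18 h. Art3, which lies between Cxcl9 and Cxcl10, had 84 to 102 intensity units over all arrays and differed by 0.16, 0.05 and 0.01 on the log2 scale at 4, 10 and 18 h (limma adjusted p = 0.0804, 0.635 and 0.941). Nup54 and Scarb2, on the side of Cxcl11, were not called at any time. On the side of Cxcl9, Naaa, which breaks down lipid amides, fell at 10 and 18 h by -1.63 and -1.85 (limma adjusted p = 7.9e-04 and 3.54e-04), and both calls were kept when any array was left out. Sdad1 fell by -0.48 and -0.54 (limma adjusted p = 0.0164 and 0.00884), with the call at 10 h lost without control array 1 or 2 (up to 0.0904) and that at 18 h without control array 2 (0.111). Ppef2 was called as lower at 10 h (-0.43, limma adjusted p = 0.0446), a call lost when any of 11 arrays was left out (up to 0.475).

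The genes whose pattern over the 16 arrays was most like each ligand were taken by Pearson correlation of log2 intensity among 2399 genes whose group means span at least 1 log2 unit. As NCFM and control arrays form separate clusters, the values carry the treatment and are a description with no test. For Cxcl9 the first 5 were Trim21 (r = 0.993), Ifih1 (0.992), Igtp (0.991), Stat2 (0.99) and Tor3a (0.99). Trim21 is a ubiquitin ligase and Ifih1 a sensor of double-stranded RNA. For Cxcl10 they were Cmpk2 (0.991), Acod1 (0.99), Ifit1 (0.99), Ifit1bl1 (0.989) and Il6 (0.987). Acod1 makes itaconate in activated myeloid cells, and Il6 is an inflammatory cytokine. For Cxcl11 they were Oasl1 (0.994), Iigp1 (0.994), Ptgs2 (0.99), Mx2 (0.989) and Mxd1 (0.989). By Spearman correlation none of these were among the first 5 of their ligand. Between ligands r was 0.984 for Cxcl9 with Cxcl10, 0.978 for Cxcl9 with Cxcl11 and 0.976 for Cxcl10 with Cxcl11. Over the 9 NCFM arrays alone these were 0.80, 0.28 and 0.15, where arrays share a time and an array number.

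T cells and natural killer cells are a known source of interferon gamma, and their markers were measured beside the ligands. The counts in these marker lists stand against 18.3%, 24.7% and 23.7% of all genes called at 4, 10 and 18 h. Of 8 measured T cell markers limma called none at any time, with 0 at an unadjusted p under 0.05, and their summed intensity was 1475 to 1608 in NCFM arrays and 1397 to 1534 in control arrays. Cd3d, Cd3e and Cd3g, which define T cells, had 157 to 179, 267 to 315 and 85 to 92 intensity units in NCFM arrays, and 151 to 166, 245 to 283 and 83 to 91 in control arrays. Of 5 natural killer cell markers limma called none at 4 h (3 at an unadjusted p under 0.05), Klrd1 fell at 10 and 18 h (-0.92 and -1.15 on the log2 scale), and Prf1 rose at 18 h (0.19). The call of Klrd1 at 10 h was lost without NCFM array 2 or 3 or control array 1 or 2 (limma adjusted p up to 0.132) and that at 18 h without control array 2 (0.0959), and that of Prf1 without NCFM array 2 or 3 or control array 1 (up to 0.129). The markers had sums of 666 to 719 in NCFM arrays and 708 to 850 in control arrays. Ncr1, which defines these cells, had 144 to 161 in NCFM arrays and 137 to 165 in control arrays. Of 5 markers of plasmacytoid dendritic cells, a strong source of type I interferon, 1 rose at each time and 1 fell at 18 h. Siglech had 131 to 147 in NCFM arrays and 118 to 138 in control arrays and was not called, nor were Ly6d and Pacsin1. Ccr9 was the gene that fell at 18 h (-0.63 on the log2 scale, limma adjusted p = 0.0232). The gene that rose was Bst2, which interferon also induces. Bst2 rose 4.58-fold and 5.19-fold at 10 and 18 h, and 1.81-fold at 4 h, where the call was lost without NCFM array 1 or 2 or any control array (limma adjusted p up to 0.11).

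Of 7 measured neutrophil markers limma called none at 4 h (1 at an unadjusted p under 0.05), Ltf and Elane fell at 10 h and Ltf at 18 h, where 16.5% and 16.3% of all genes fell. The list medians were -0.56, -0.917 and -0.999 on the log2 scale. The calls of Ltf were lost when any of 7 arrays at 10 h or 11 arrays at 18 h was left out (limma adjusted p up to 0.286 and 0.207), and that of Elane without NCFM array 3 or control array 2 (up to 0.101). Their summed intensity was 5556 to 35702 in NCFM arrays and 22751 to 47401 in control arrays. Among 6 macrophage markers, Mrc1, the mannose receptor, fell by -2.62 and -3.58 at 10 and 18 h, and by -0.61 at 4 h, where the call was lost without NCFM array 1 or 2 or control array 2 or 3 (limma adjusted p up to 0.0951), and 1 other marker was called, as higher, at 10 h. Of 8 dendritic cell markers Cd86, a costimulatory molecule, rose at each time by 1.38, 2.03 and 2.27. Itgax fell at 10 and 18 h by -0.61 and -0.81, with the calls lost without NCFM array 2 or 3 or control array 1 at 10 h (up to 0.283) and without control array 1 at 18 h (0.061), and Cd74 fell at 18 h by -0.23. Of 4 B cell markers limma called none (0, 1 and 0 at an unadjusted p under 0.05), of 5 mast cell or basophil markers 1 rose and 1 fell at 18 h, and of 6 stromal or endothelial markers 1 rose at 4 h and 2 at 18 h, where 5.27% and 7.4% of all genes rose. These counts are of 1 or 2 genes and read as no result about the lists. The part of these markers in the ligand values was not tested.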

How the data were processed

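The authors deposited 1 table of intensity values, 45101 probe sets by 16 single-channel arrays, as whole numbers from 42 to 31573. Array medians of 162 to 167 show that arrays were brought to 1 scale, while the method of probe set summary, background correction and scaling was not given in the sources used here. RNA was amplified and labelled with biotin, per the labels' protocols. The files name no genome build. Of the probe sets 34945 name 1 gene, 932 several, 9160 are not in the probe table and 64 are controls. The brightest probe set over all arrays was kept for each of 18193 genes, 18032 of which matched a reference gene identifier, and values were taken to log2. Precision is limited by how many arrays a group has.

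The limma package (version 3.58.1, R version 4.3.3) fitted 1 mean for each group to all 16 arrays, leaving 10 residual degrees of freedom. Its two-sided p-values were adjusted with the Benjamini-Hochberg method across all genes. The fit was tested on simulated data with noise independent between arrays, which does not cover links between arrays of the same number. No arrays had identical values. Plots were made in matplotlib 3.10.9 (Python 3.11.15). Genes are named when they are ligands, members of the 9 pathway and 9 cell type lists (141 of 155 measured), the nearest genes on the chromosome, or the 5 most like each ligand. The ligands, lists and motifs were chosen with earlier results of these data known.

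The labels number the arrays within groups. In the 36 pairs of arrays with the same number, deviations from the means of their groups had correlations over genes of 0.192 to 0.746 (median 0.42), against -0.746 to 0.726 (median -0.318) in 70 pairs of different numbers. The numbers were therefore taken to pair the samples, and a blocked fit served as an alternative. In the 10 and 18 h controls, which hold 2 arrays, the deviations mirror each other and are not separate evidence. Other alternatives were other scalings, background subtraction, probe set rules, filters, variance models, array subsets and each array left out.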

Additional observations from a re-analysis of the deposited data

Results flagged for a closer look

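In the fit without a block, differences of the NCFM effect between times passed the test for 1 ligand probe set and 4 of 87 genes of the lists around the ligands. Over all genes 0.506% passed between 4 and 10 h and 3.4% between 4 and 18 h. The 4 of 87 genes between 4 and 18 h are near that share and read as no result about the lists. When the array number was a block, 5 of the 87 genes passed between 4 and 10 h, against 2 without it. Between 4 and 18 h 15 passed with the block, against 4 without it. Over all genes 2.51% and 9.15% passed with the block in these 2 comparisons. The kept Cxcl9 probe set also passed between 4 and 18 h with the block (-1.20, limma adjusted p = 0.0103). All calls without the block were also made with it. The dim Cxcl9 probe set had an effect at 18 h minus that at 4 h of -1.08 on the log2 scale (limma adjusted p = 0.045), with rises of 3.65-fold at 4 h and 1.73-fold at 18 h. For Ifnb1 the effect at 10 h minus that at 4 h was -2.13 (limma adjusted p = 0.0243) and at 18 h minus 4 h -2.67 (limma adjusted p = 0.00221). For Tnf these differences were -1.71 (limma adjusted p = 0.0241) and -3.01 (limma adjusted p = 5.15e-04). The call of Ifnb1 between 4 and 10 h was lost without NCFM 4 h array 2, NCFM 10 h array 3, control 4 h array 2 or 3, or control 10 h array 1 (limma adjusted p up to 0.105, values -2.47 to -1.88 over all arrays left out). That of Tnf was lost without NCFM 10 h array 2, control 4 h array 2 or 3, or control 10 h array 1 (limma adjusted p up to 0.127, values -1.97 to -1.46). For Myd88 the effect at 18 h minus that at 4 h was -1.15 (limma adjusted p = 0.00752), a call kept when any array was left out. For Isg20, an interferon-induced exonuclease, it was 1.64 (limma adjusted p = 0.0463), and the call was lost when any of 11 arrays was left out (limma adjusted p up to 0.159). Groups of 2 or 3 arrays were not tested for an outlying array.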

How the results depend on the processing

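The 9 differences between NCFM and control cells for the 3 ligands kept their direction and call under each of 30 alternatives. The log2 values ranged from 3.71 to 6.76, 3.15 to 5.69 and 2.68 to 5.70 for Cxcl9 at 4, 10 and 18 h, from 4.90 to 5.63, 4.59 to 6.08 and 4.22 to 5.77 for Cxcl10, and from 2.54 to 5.09, 3.08 to 5.73 and 2.58 to 5.67 for Cxcl11. Of 630 values for differences between times, 615 kept their side of the threshold. The rise of Cxcl11 in NCFM cells from 4 to 10 h (0.67) was no longer called with spike-in centring (0.41, limma adjusted p = 0.0692), with percentile 5 subtracted (0.68, 0.0526), with only the compared groups in the fit (0.67, 0.197) or at a threshold of 0.01 (0.67, 0.0368), and ranged from 0.50 to 0.85 with 1 array left out. Spike-in centring moves the median of all genes by -0.25 in that comparison, and the cause of the other losses was not tested. The change of Cxcl11 in NCFM cells from 10 to 18 h was called with array weights (-0.54, limma adjusted p = 0.0133) and with only arrays 2 and 3 (-0.57, 0.0437). With the array number as a replicate block, the change of Cxcl9 from 10 to 18 h (-0.75, limma adjusted p = 0.0158) and its effect at 18 h minus 4 h (-1.20, 0.0103) were called, and the block changed no other call of the kept ligand probe sets. For the dim Cxcl9 probe set, the block made the change in NCFM cells from 10 to 18 h a call (-0.63, limma adjusted p = 0.0494). Spike-in centring moved the median of all genes to 0.19, -0.25 and 0.005 at 4, 10 and 18 h (log2). Over all genes 3335, 4488 and 4320 were called at 4, 10 and 18 h, and 4880, 5666 and 5557 with the block. At 4 h the count was 5671 with array weights, 1713 at a threshold of 0.01, and 2138 and 2207 without control array 2 or 3. At 10 h it was 6832 with spike-in centring, 2585 at a threshold of 0.01 and 2134 without control array 1, and at 18 h 2449 with only the compared groups, 2416 at 0.01 and 2868 without control array 2. Leaving out a 10 or 18 h control array leaves 1 control, assumed to vary like the other groups. Counting only bases before the start lowers the share of promoters with each of the 6 motifs (2.98% for the interferon element). Alternatives for list, marker and neighbour genes were chosen after seeing the data. Low control intensities limit the folds of Cxcl9 and Cxcl11, which grow when background is subtracted.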
